A study of Mus musculus with 6 samples.

Results

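The chromatin regions described here are those that MLL-AF9 leukemia stem cells (LSCs) lost with mycophenolate mofetil (MMF) when peak lists of equal length were compared. From the peak list of each of the 6 samples, the 58496 peaks of highest −log10 p were taken, which is the number of peaks in the shortest list, and overlapping peaks were merged into 85883 regions on chromosomes 1 to 19, X and Y. A region was called lost when all 3 control lists and none of the 3 MMF lists held a peak in it. This left 1175 lost regions, 1.37% of all regions, while the mirror rule gave 2020 gained regions, 2.35% of all regions. Each region was assigned to the protein-coding gene with the nearest transcription start in GENCODE M21, and distances below are to that start, which may be an internal one of the gene. The regions were selected on the presence of peaks in the same 6 samples, so the difference between control and MMF-treated LSCs at these regions is described and not tested.

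ATAC-seq reads open chromatin from the places where the Tn5 transposase inserts sequencing adapters. The samples were L-GMP cells, the leukemic granulocyte-macrophage progenitors that carry the stem cell activity of an MLL-AF9-driven murine AML, labelled as AML LSCs of genotype WT from blood. All 6 cultures were grown with 20% FBS and 10 ng/ml mouse IL3. The groups were labelled Control (n = 3) and MMF (n = 3), with a treatment of 24 h for MMF, and what the control cultures received is not stated. A figure legend of the authors gives a shorter MMF treatment for their ATAC-seq. The MLL-AF9 fusion was introduced to start the leukemia and is shared by both groups, and the labels do not say whether replicates came from separate mice or cultures, so the spread between them may be technical. Of 10 marker genes of granulocyte-macrophage progenitors and myeloid cells, 5 (Spi1, Cebpa, Kit, Csf2rb and Itgam) had a promoter peak in every sample and Mpo had none in any. None of the 5 T cell markers had a promoter peak, while 1 of 4 B cell markers (Ebf1), 1 of 5 erythroid markers (Klf1) and 1 of 5 mast cell and basophil markers (Mcpt8) had one in every sample. The summed promoter level of the myeloid markers, in reads over the summit per genome-wide background read, ranged from 362 to 385 in control and from 482 to 544 in MMF-treated LSCs. The groups overlapped in the sums of the B cell (18.8 to 30.2 in control, 28.6 to 38.4 with MMF) and erythroid markers (106 to 132, 104 to 114). They also overlapped in the sum of the mast cell and basophil markers (57.9 to 64.5, 62.7 to 72.4). In bulk samples, fewer cells with an open region and less accessibility per cell cannot be told apart.

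MMF blocks inosine monophosphate dehydrogenase, the enzyme that commits purine synthesis to guanine nucleotides, and its inhibitors are known to induce maturation of cultured myeloid leukemia cells. Distal open regions are mostly enhancers and insulators, which bind transcription factors and act on genes that are often, but not always, the nearest ones. Several open regions around a single gene are common at genes of cell identity, so the number of regions a gene holds sets how many it can lose.

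The lost regions had a median width of 301 bp. The 5 lost regions with the highest mean −log10 p in the control lists are shown first, as 121 bp centred on the summit on the plus strand of GRCm38. Capitals mark letters that match any of the searched motifs, which are C/EBP (TTGCNNAA), PU.1 (GAGGAAGT), KLF (CCACACCC, CCCCACCC, CCACGCCC or CCCCGCCC), NF-Y (ACCAATC or ACCAATG, and also GCCAATC or GCCAATG), RUNX (AACCACA), AP-1 (TGAGTCA or TGACTCA), ETS (CCGGAAGT), MYB (AACTGNC), E-box (CACGTG), MEIS (TGACAG), the letters AGATAA bound by GATA factors, and CTCF, each on both strands.
Hfe2, 30428 bp upstream, chr3:96494684-96494804: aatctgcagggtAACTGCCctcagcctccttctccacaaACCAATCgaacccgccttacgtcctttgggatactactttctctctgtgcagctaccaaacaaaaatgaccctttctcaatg
Lbr, 10863 bp upstream, chr1:181853182-181853302: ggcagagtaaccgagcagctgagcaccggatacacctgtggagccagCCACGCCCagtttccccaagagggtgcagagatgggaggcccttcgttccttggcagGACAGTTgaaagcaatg
Bhlha15, 6088 bp upstream, chr5:144184138-144184258: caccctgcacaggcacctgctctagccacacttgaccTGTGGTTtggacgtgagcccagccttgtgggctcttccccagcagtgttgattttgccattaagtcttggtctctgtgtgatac
Gnat1, 1403 bp downstream, chr9:107678249-107678369: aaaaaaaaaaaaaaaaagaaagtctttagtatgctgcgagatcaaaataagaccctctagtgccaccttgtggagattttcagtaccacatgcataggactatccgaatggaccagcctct
Tdrd1, 17530 bp downstream, chr19:56848182-56848302: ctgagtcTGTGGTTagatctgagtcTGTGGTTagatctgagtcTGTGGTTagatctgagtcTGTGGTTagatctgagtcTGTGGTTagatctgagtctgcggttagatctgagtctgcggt
The Hfe2 window holds an NF-Y and a MYB match, the Lbr window a KLF and a MYB match, and the Bhlha15 window a RUNX match, while no searched motif occurs in the Gnat1 window. The Tdrd1 window consists of copies of a short unit, of which some carry a RUNX match, and the 200 bp around its summit were 94.5% identical to themselves when shifted by 54 bases.

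Windows of genes with several lost regions are shown next, because the account below turns on them. Mbnl1 had a pair of lost regions 1001 bp apart in an intron near its start, and both lost regions of Zfp184 overlapped a tRNA gene of the RefSeq annotation.
Mbnl1, 1266 bp downstream, chr3:60474285-60474405: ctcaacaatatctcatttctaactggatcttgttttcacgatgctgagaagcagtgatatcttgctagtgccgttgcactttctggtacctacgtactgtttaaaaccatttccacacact
Mbnl1, 2267 bp downstream, chr3:60475286-60475406: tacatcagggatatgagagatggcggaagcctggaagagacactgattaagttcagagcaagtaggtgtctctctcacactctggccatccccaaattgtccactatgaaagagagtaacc
Zfp184, 17153 bp upstream, chr13:21927881-21928001: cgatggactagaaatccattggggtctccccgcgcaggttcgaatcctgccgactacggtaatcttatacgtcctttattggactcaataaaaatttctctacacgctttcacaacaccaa
Zfp184, 7895 bp upstream, chr13:21937139-21937259: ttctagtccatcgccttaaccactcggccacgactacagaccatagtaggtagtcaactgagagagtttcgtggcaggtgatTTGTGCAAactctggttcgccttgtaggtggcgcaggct
Kcnj12, 9245 bp downstream, chr11:61031749-61031869: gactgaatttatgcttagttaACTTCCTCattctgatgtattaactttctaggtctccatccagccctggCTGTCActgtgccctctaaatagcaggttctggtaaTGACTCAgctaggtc
Ninj2, 4362 bp downstream, chr6:120198125-120198245: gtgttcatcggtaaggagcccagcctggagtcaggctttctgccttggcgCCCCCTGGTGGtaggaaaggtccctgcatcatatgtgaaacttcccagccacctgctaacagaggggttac
Erg, 11184 bp downstream, chr16:95448001-95448121: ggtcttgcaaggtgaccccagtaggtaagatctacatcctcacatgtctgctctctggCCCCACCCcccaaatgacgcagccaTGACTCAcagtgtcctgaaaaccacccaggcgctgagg
Hdc, 8873 bp downstream, chr2:126609745-126609865: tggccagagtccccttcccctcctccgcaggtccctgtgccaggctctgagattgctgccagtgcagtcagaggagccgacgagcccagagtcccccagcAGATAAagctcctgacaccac
Hdc, 17454 bp upstream, chr2:126636072-126636192: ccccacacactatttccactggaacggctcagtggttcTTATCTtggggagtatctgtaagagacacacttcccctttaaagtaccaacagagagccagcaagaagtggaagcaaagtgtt
Neither of the paired Mbnl1 windows matched a searched motif. The Kcnj12 window carries PU.1, AP-1 and MEIS letters within 121 bp, the Ninj2 window a CTCF match, the Erg window KLF and AP-1 matches, and both Hdc windows a GATA match.

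The lost regions were weak peaks close to the cutoffs. Cutting the lists to equal length removed peaks with a −log10 p below 4.94 and 5.07 in control replicates 1 and 2, and below 9.58, 8.35 and 7.62 in MMF replicates 1 to 3, whose lists were longer. Control replicate 3 had the shortest list and was kept whole, down to 3.01. The median −log10 p of the lost regions was 7.82, 7.63 and 7.63 in the control lists, against medians of 13.3, 13.1 and 12.0 over all regions held by those lists. The median lost region had 10, 9 and 9 reads over its summit in the control samples, where a summit read count is the whole number solved from the fold enrichment and p that the authors' peak caller gave. All 3 control values were at or above the lowest MMF cutoff in 209 lost regions and at or above the highest in 45. In 195 lost regions all 3 control values were below the lowest MMF cutoff, so that no peak of the same −log10 p would have been kept in an MMF list.

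**Figure D1:**
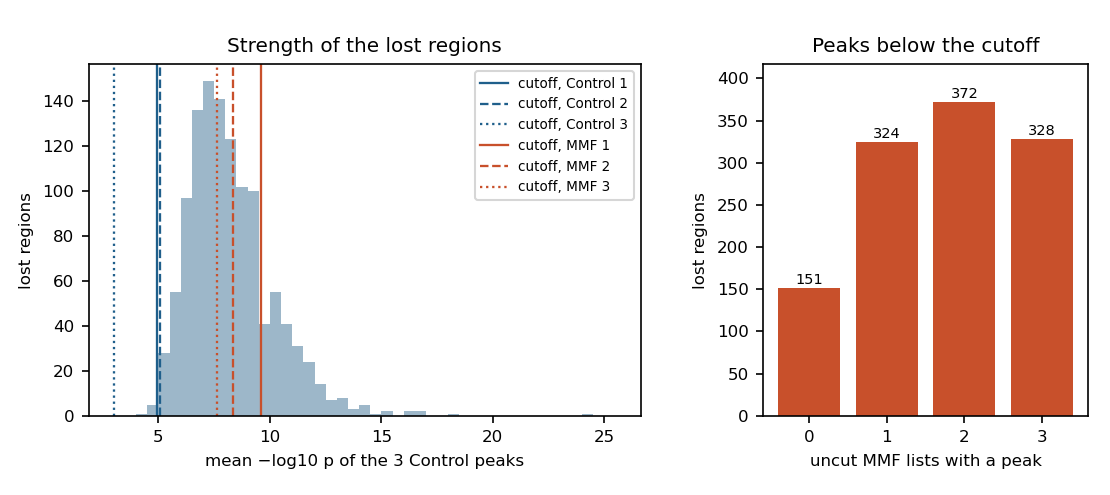
The left panel is a histogram of the mean −log10 p of the 3 control peaks in each of the 1175 lost regions, with the cutoff of each list as a vertical line, and the right panel counts lost regions by the number of uncut MMF lists that hold a peak there. The bulk of the histogram lies between the control cutoffs (3.01 to 5.07) and the MMF cutoffs (7.62 to 9.58) or just above them, and 151 regions have no peak in any uncut MMF list.

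Before the cut, the MMF lists held a peak in 774, 678 and 600 of the 1175 lost regions. Of the lost regions, 151 (12.9%) had no peak in any uncut MMF list, 324 had one in a single list, 372 in 2 lists and 328 (27.9%) in all 3. Among the 1024 with any MMF peak, 729 had an MMF −log10 p at or above the lowest control value. For the 328 regions with a peak in all 6 uncut lists, the summit reads were divided by the background of the whole genome in each sample, which removes depth and is called reads per background. Its median over these regions was 13.5 in control and 10.9 in MMF-treated LSCs, and the median log2 ratio of MMF to control was −0.31, against 0.16 over all 41148 regions with a peak in all 6 lists. The MMF samples all lay below the lowest control sample in 102 of the 328 regions (background 7.68% of the 41148) and above the highest in 7 (background 29.2%). By −log10 p the groups did not overlap in the same direction in 63 of the 328 regions (background 2.03%). These shares were set in part by the rule itself.

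At the edge of the rule, regions near 1700012B07Rik, Map2k6 and Rad51ap2 were lost although MMF replicate 2 reached its cutoff of 8.35 exactly there. Regions near Jph1, Xrcc5 and Usp37 had the same value in that list and were not lost, because of the order of ties at the cutoff. Tied peaks were ordered by fold enrichment and then by chromosome and position. Where fold enrichment was tied too, genome position alone decided.

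The 1175 lost regions fell on 1090 genes, 6.31% of the 17278 genes with any region. Of these, 1015 genes had 1 lost region, 66 had 2, 8 had 3 and Mbnl1 had 4. The 75 genes with 2 or more (0.434% of genes with a region) held 160 lost regions. They also held many regions in all, with a median of 16 per gene against 3 over all genes with a region. The gained regions gave 205 genes with 2 or more and 32 with 3 or more. Of the 75 genes with several lost regions, 57 had no gained region, 18 had at least 1 and 2 had 2 or more. Over all 17278 genes with a region, 1781 had at least 1 gained region, and these genes hold fewer regions each than the 75. The lost summits of a gene spanned a median of 44876 bp, 25 of the 75 genes had a span over 100 kb, and 12 had a pair within 10 kb. At least 1 lost region without a peak in any uncut MMF list was found at 22 of the genes, and 2 such regions at none.

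**Figure D2:**
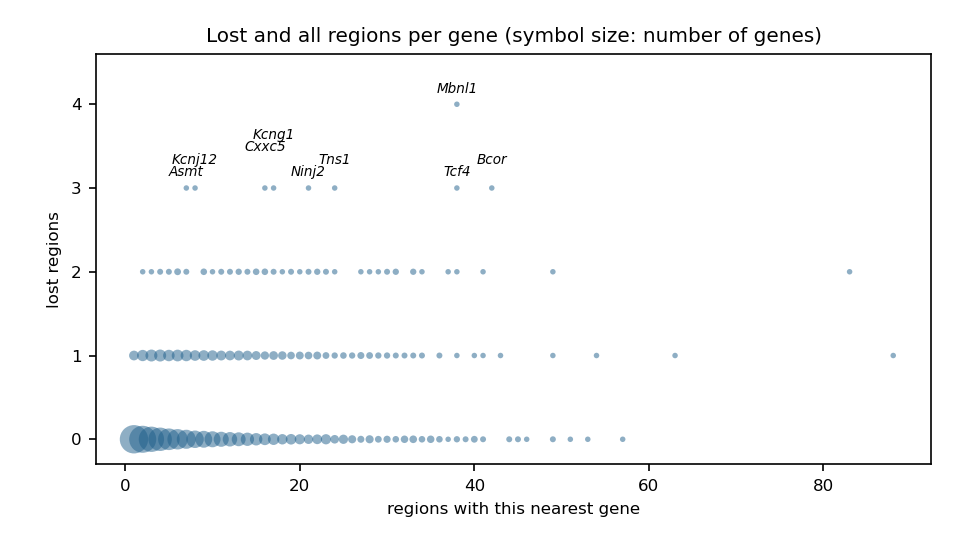
Each point gives the number of lost regions (vertical axis) of genes with a given number of regions in all (horizontal axis), with the symbol size growing with the number of genes. Mbnl1 stands alone at 4 lost of 38 regions, and Asmt (3 of 7) and Kcnj12 (3 of 8) lost the largest shares among the 9 genes with 3 or more.

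The 9 genes with 3 or more lost regions were Mbnl1, Bcor, Kcng1, Tns1, Tcf4, Ninj2, Cxxc5, Asmt and Kcnj12. Their 28 lost regions lay in introns in 18 cases, between genes in 5, within 1 kb of a start in 4 and in an exon in 1. No uncut MMF list held a peak in 6 of the 28, 1 list did in 10, 2 lists in 7 and all 3 in 5. Where any MMF peak was called, all called MMF values were below all control values by −log10 p in 9 of 22 regions and by reads per background in 12 of 22. In the other 13 of the 22 an MMF −log10 p reached the lowest control value, against 729 of the 1024 lost regions with any MMF peak. By reads per background the count over the 75 genes was 60 of 138. No count over all lost regions is given on this scale, so these 2 shares have no background. Where all 3 uncut MMF lists held a peak, MMF levels were all lower in 3 of 5 regions of the 9 genes. The same held in 12 of 41 regions of the 75 genes and in 102 of 328 lost regions (background 7.68%). The rule itself set these counts in part.

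Mbnl1 encodes a zinc finger protein that controls alternative splicing. It lies on chromosome 3 (60472830-60629750, plus strand), and its 4 lost regions spanned 155098 bp of the gene. The region 2267 bp downstream of the start was the strongest, with a −log10 p of 17.1, 18.8 and 9.76 in control replicates 1 to 3 and a peak of 6.97 in MMF replicate 1 alone. By reads per background it stood at 50.8, 56.4 and 41.9 in control and at 22.0 in MMF replicate 1, so the control samples were all higher than the only MMF sample with a peak. The partner region 1266 bp from the start had 9.19, 9.87 and 7.25 on the −log10 p scale in control and no peak in any MMF list. The regions 72739 bp and 100294 bp downstream of internal starts were weaker, and in the first of them MMF replicate 2 (7.20) lay above control replicates 1 and 3 (6.19 and 6.76). The promoter of Mbnl1 did not follow these regions, since its level was 54.9, 59.3 and 58.0 reads per background in control and 63.8, 68.0 and 68.0 with MMF, every MMF sample being above every control sample.

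**Figure D3:**
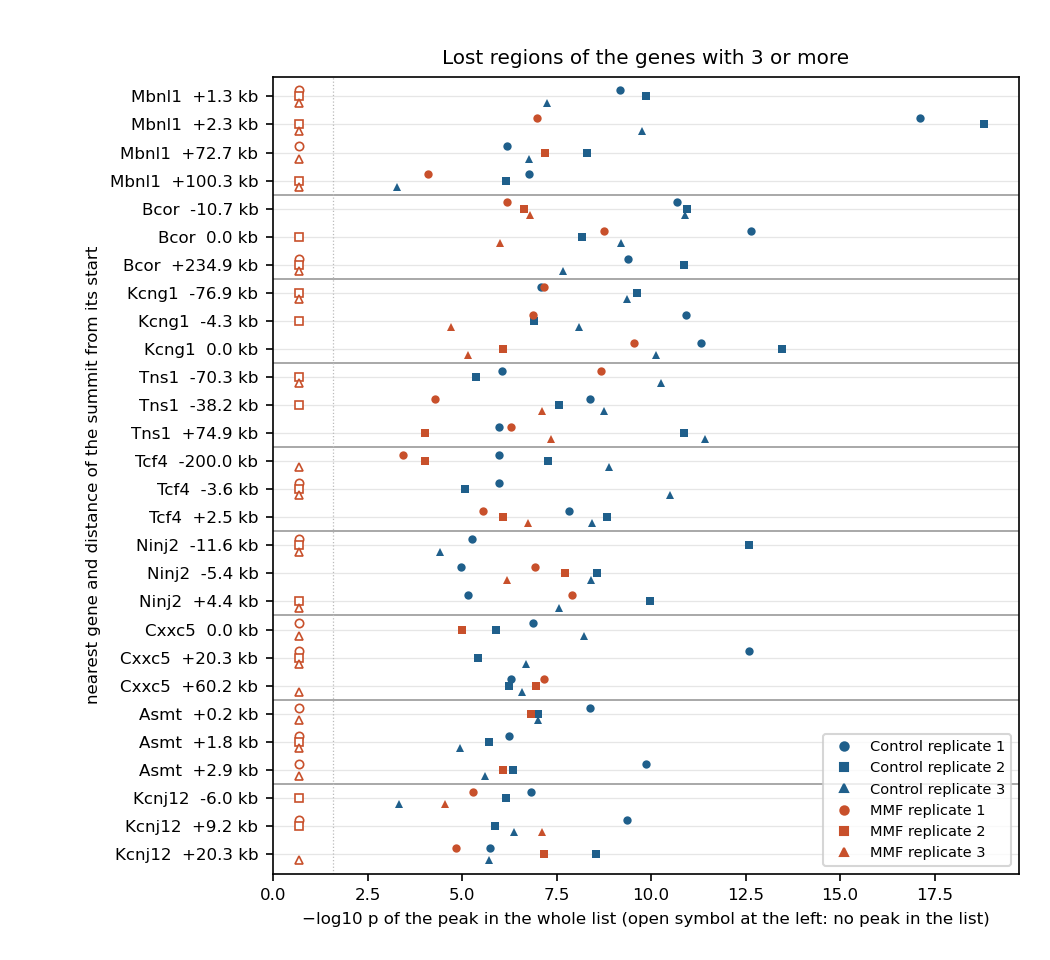
The −log10 p of the peak in each uncut list is plotted for the 28 lost regions of the 9 genes with 3 or more, control replicates in blue and MMF replicates in orange, with open symbols at the left where a list holds no peak. The Mbnl1 region at 2.3 kb reaches 17.1 and 18.8 in control replicates 1 and 2, while control and MMF symbols overlap in regions such as that of Ninj2 at 5.4 kb upstream.

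Of the transcription and chromatin genes in this group, Bcor encodes a BCL6 corepressor of a Polycomb complex, Tcf4 an E protein of the basic helix-loop-helix family and Cxxc5 a zinc finger protein that binds CpG. The Bcor region 10683 bp upstream of a start had even control values, 10.67, 10.96 and 10.90 on the −log10 p scale, and MMF values of 6.19, 6.63 and 6.81, so that the groups did not overlap. In reads per background it was 31.6, 33.3 and 35.5 in control and 19.8, 25.5 and 25.1 with MMF. The Bcor region 8 bp from a start had control values of 12.6, 8.17 and 9.21 and MMF values of 8.75 and 5.99 with no peak in replicate 2, where MMF replicate 1 lay above control replicate 2. Another Bcor region, 234865 bp downstream of the nearest start and between genes, had control values of 9.40, 10.9 and 7.67 and no MMF peak.

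At Tcf4 the region 2536 bp downstream of a start was the only one with a peak in all MMF lists, at 7.82, 8.82 and 8.44 in control and 5.54, 6.08 and 6.73 with MMF on the −log10 p scale, without overlap. Another intronic region 3646 bp upstream of a start had no MMF peak, and its control values of 5.98, 5.09 and 10.5 spread widely. The remaining one lay between genes, 199981 bp upstream of the nearest start. Cxxc5 lost a region at its start (6.88, 5.90 and 8.22 in control, 5.00 in MMF replicate 2 alone) and a region 20291 bp downstream that rested mostly on control replicate 1 (12.6, 5.42 and 6.68, no MMF peak). In its most distant lost region, 60184 bp downstream, MMF replicates 1 and 2 (7.17 and 6.95 on the −log10 p scale) lay above all control values (6.30, 6.24 and 6.60), while MMF replicate 3 had no peak. In reads per background the same MMF replicates stood at 12.1 and 14.2 and control at 13.7, 13.0 and 14.5, so the groups overlapped on that scale. Both MMF values lie below the cutoffs of their lists.

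Kcng1 and Kcnj12 encode potassium channel subunits, Tns1 the focal adhesion protein tensin 1 and Ninj2 the adhesion molecule ninjurin 2. The start of Kcng1 carried a peak in all 6 uncut lists, with a −log10 p of 11.3, 13.5 and 10.1 in control and 9.54, 6.09 and 5.15 with MMF, and all MMF samples were below all control samples. In reads per background this start peak was 17.1 ± 1.46 in control and 10.3 ± 1.65 with MMF (SD, n = 3). Its region 4306 bp upstream had control values of 10.9, 6.90 and 8.10, and its region 76895 bp upstream 7.08, 9.64 and 9.36. In both, MMF replicate 1 (6.87 and 7.18) was close to the lowest control value.

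Of the 3 lost regions of Tns1, those 38201 bp and 70267 bp upstream of an internal start lay in introns, with control means of 8.24 ± 0.609 and 7.23 ± 2.65 on the −log10 p scale (SD, n = 3). In the first, MMF replicates 1 and 3 had 4.29 and 7.12, below all control values, and in the other MMF replicate 1 had 8.68, above control replicates 1 and 2 (6.05 and 5.38). The remaining Tns1 region lay between genes, 74944 bp downstream of a start, and its window holds tandem copies of TTAGGG. The groups overlapped there (5.98, 10.9 and 11.4 in control, 6.29, 4.03 and 7.35 with MMF). All 3 regions of Ninj2 lay in introns and spanned 15932 bp, and the lowest control values of the regions were 4.41, 4.97 and 5.17 on the −log10 p scale. The Ninj2 region 5427 bp upstream of a start had 4.97, 8.56 and 8.40 in control and 6.94, 7.73 and 6.19 with MMF, so the groups overlapped. The 3 lost regions of Kcnj12 had control means between 5.44 and 7.21, the weakest of the 9 genes on average, and in each at least 1 MMF peak was as high as a control peak.

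Asmt, which encodes the last enzyme of melatonin synthesis, lost 3 of its 7 regions within 2701 bp at the distal end of the X chromosome, in the region that pairs with Y. The control values of its region 1847 bp downstream were 6.25, 5.71 and 4.94 on the −log10 p scale with no MMF peak. The regions 202 bp and 2903 bp downstream had control values of 8.39, 7.013 and 7.001 and of 9.88, 6.35 and 5.60, and MMF replicate 2 alone had peaks there (6.82 and 6.09). By contrast the highest promoter peak of Asmt was 75.8 to 103 reads per background in control and 106 to 122 with MMF. That sequence is shared with the Y chromosome, so reads of the copies may not be told apart.

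The 5 lost regions of highest mean −log10 p lay near other genes. Between genes, 30428 bp upstream of Hfe2, which encodes the BMP co-receptor hemojuvelin, the control values were 21.8, 33.9 and 16.7, and the only MMF peak was 8.22 in replicate 1. In reads per background that region was 53.5, 76.7 and 51.6 in control and 23.1 in MMF replicate 1. Upstream of Lbr, the lamin B receptor of the inner nuclear membrane, all 6 uncut lists held the peak, at 22.3, 17.2 and 14.9 in control and 7.20, 6.61 and 6.99 with MMF. Its reads per background of 34.3, 28.9 and 29.0 in control and 13.2, 15.6 and 16.3 with MMF did not overlap either. Near Bhlha15, a transcription factor of secretory cells, control values were 19.3, 16.5 and 14.9 against 5.66 in MMF replicate 1 alone. The promoter of the same gene was lower in every MMF sample (19.3 to 30.4 in control, 13.3 to 16.5 with MMF, reads per background). So were 17.8% of the 11633 promoters with a peak in all 6 uncut lists. At Lbr the promoter levels of the groups overlapped (70.9 to 114 in control, 78.1 to 112 with MMF). The intronic region of Gnat1, rod transducin, had 21.9, 13.7 and 14.0 in control and 7.49 in MMF replicate 1. The Tdrd1 region over the repeat had 10.4, 13.5 and 25.6 in control and 7.33, 6.09 and 5.15 with MMF.

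By broad function, grouped after the genes were known, 11 of the 75 genes act in transcription and chromatin, 12 in signalling, 7 in RNA, ribosome or protein turnover, 9 are metabolic enzymes, and 9 are channels or proteins of adhesion and the cytoskeleton. The other 27 were not grouped. The transcription and chromatin genes held 25 lost and 1 gained region of 267, and the signalling genes 24 lost and 3 gained of 304. The RNA, ribosome and protein turnover genes held 16 lost and 2 gained of 132, the enzymes 19 lost and 3 gained of 128, and the channel, adhesion and cytoskeleton genes 22 lost and 3 gained of 170. These counts start at 2 lost regions per gene by the choice of genes, so they describe the groups and do not rank them.

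Some of these genes are named for their roles, chosen after their values were seen. Cbfa2t3, a corepressor of the ETO family, lost a region 368 bp upstream of a start with 45.3, 36.2 and 38.7 reads per background in control and 22.0 and 25.5 in the only MMF lists with a peak. Aff3, of the family that includes partners of MLL in leukemia, lost a region 11 bp from its start, where control levels were 13.7, 17.4 and 12.9 and MMF levels 9.90, 9.92 and 11.8. In the Cbfa2t3 and Aff3 regions all called MMF values were below all control values. In a lost region of Maml3, a coactivator of Notch, MMF replicate 1 (7.33 on the −log10 p scale) lay above control replicates 1 and 2 (7.08 and 5.09). In a lost region of Jade1, a subunit of a histone acetyltransferase complex, MMF replicate 1 (9.54) lay above all control values (7.08, 6.15 and 8.88). The other lost region of Maml3 had 11.7, 10.02 and 10.5 in control and 6.76 and 5.53 in MMF replicates 1 and 3. Among the signalling genes, Fyn, a Src family kinase, lost a region 58110 bp upstream (13.2, 14.8 and 8.44 in control, 7.33 and 5.15 in MMF replicates 1 and 3), and in its other lost region MMF replicate 1 (7.24) lay above control replicates 1 and 2 (6.24 and 5.45). Ifngr1, a subunit of the interferon gamma receptor, lost a region 62100 bp upstream (7.05, 7.87 and 15.6 in control, no MMF peak), and in its other lost region MMF replicate 2 (6.39) lay above control replicate 2 (5.63). Among genes of RNA and ribosomes, Bms1, a GTPase of small subunit assembly, lost a region 21935 bp downstream with 9.40, 17.6 and 8.88 in control and 4.34, 4.03 and 6.22 with MMF, and 76.5% of the 200 bp around its summit are masked as repeats. In the other lost region of Bms1, MMF replicate 2 (8.35) lay above control replicate 2 (7.27) and exactly at its own cutoff.

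Gene lists for this model were then read for lost regions, against 6.31% of genes and 1.37% of regions in the whole series. The median number of lost regions per gene was 0 in each list and over all genes. Of the MLL-AF9 target regulators, 6 of 27 genes had a lost region (Meis1, Cdk6, Mecom, Zeb2, Lmo2 and Tcf4), but these genes hold many regions, and 8 of their 542 regions (1.48%) were lost and 6 gained. Of the stem and progenitor genes, 5 of 22 had one (Lmo2, Erg, Mycn, Angpt1 and Meis1), with 6 of 297 regions (2.02%). Meis1, a homeobox cofactor of the fusion's program, lost 1 of 27 regions, 10352 bp from a start, where control values were 7.27, 10.97 and 5.29 on the −log10 p scale and MMF replicate 3 had 6.47. Erg, an ETS factor of blood stem cells, lost a region 11184 bp downstream with 12.8, 7.75 and 13.6 in control and 6.49 in MMF replicate 3 alone, and a region 834 bp from its start where the values of both groups overlapped (6.15, 9.92 and 8.72 against 9.45, 7.79 and 7.20). Lmo2, Mecom and Mycn each lost 1 region with a control mean between 7.55 and 8.05. The promoters of Lmo2 and Angpt1 were higher in every MMF sample (background 6.21%). At Erg, Mecom, Mycn, Cdk6 and Tcf4 the promoter levels of the groups overlapped. Cdk6, a cell cycle kinase, lost 1 of 27 regions, and the 200 bp around that summit are a repeat, 78.0% identical to themselves at a shift of 36 bases.

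None of the 16 erythroid and megakaryocyte genes and none of the 25 myeloid maturation genes with a region had a lost one, of 105 and 192 regions. Gained regions numbered 3 and 2 (2.86% and 1.04%, against 2.35% of all regions). With 1.37% of all regions lost, lists of this size would hold few lost ones. Of the mast cell and basophil genes, 3 of 13 had a lost region (Hdc, Il13 and Alox5), with 4 of 83 regions lost (4.82%) and 4 gained. Hdc makes histamine, and its region 8873 bp downstream had 10.4, 9.31 and 10.5 in control and 7.60 in MMF replicate 3 alone. Its region 17454 bp upstream overlapped between the groups (9.40, 6.15 and 5.39 against 7.33, 7.20 and 7.35). The Il13 region overlapped too (7.08, 6.15 and 7.67 against 7.33, 6.09 and 7.35). At Alox5, MMF replicate 1 (7.91) lay above the highest control value (7.08), and MMF replicate 2 had 5.65. The share of 4.82% thus rests mostly on regions where the groups overlapped by −log10 p. Of the ribosome biogenesis genes, 4 of 21 had a lost region (Polr1a, Polr1b, Taf1b and Npm1), with 4 of 79 regions lost (5.06%) and 1 gained. Polr1b and Polr1a encode the large subunits of RNA polymerase I and Taf1b a factor that loads it. The Polr1b region 17003 bp upstream had 10.3, 12.2 and 12.5 in control and 8.35 and 6.22 in MMF replicates 2 and 3, and 91.5% of its 200 bp are masked as repeats. MMF replicate 2 sat exactly at its cutoff there, and with all ties at the cutoff kept the region was not lost. The Npm1 region 7527 bp upstream had 7.08, 14.8 and 10.1 in control and 7.33, 7.20 and 6.22 with MMF, which overlap.

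Of the purine synthesis genes, 1 of 22 had a lost region (Prps1, 1 of 98 regions lost and 4 gained), with 8.22, 6.15 and 4.33 in control and 6.22 in MMF replicate 3. Of the cytokine receptor and signalling genes, 1 of 32 had one, Stat5b, a mediator of IL3 signals. It lay 631 bp upstream of the start, with 9.19, 9.80 and 11.3 in control and no MMF peak in any uncut list, and its level was 23.3, 26.03 and 29.0 reads per background. The promoter of Stat5b as a whole was 45.0 ± 7.39 in control and 47.3 ± 6.67 with MMF (SD, n = 3), a difference smaller than the spread. In the T and NK cell list 3 of 22 genes had a lost region (Zap70, Lef1 and Tox), in the B cell list 2 of 12 (Pax5 and Bach2), in the cell cycle list 2 of 20 (Cdk6 and Cdkn1a), in the Notch, Wnt and TGF-beta list 3 of 24 (Dll1, Lef1 and Smad7) and among long neuronal genes 2 of 25 (Nrxn3 and Cntn5). The shares of their regions that were lost were 1.76%, 2.11%, 1.19%, 1.28% and 1.105% in the same order, with 3, 2, 2, 4 and 2 lost regions against 3, 1, 3, 8 and 5 gained. The Nrxn3 region was not lost when all ties at the cutoff were kept. Smad7, an inhibitor of TGF-beta signals, lost 2 regions, 80288 bp upstream and 85393 bp downstream, and MMF replicate 1 lay within the range of the control values in both (8.64, 8.21 and 10.8 against 8.85, and 6.85, 8.04 and 8.11 against 7.92). Zap70, a kinase of T cell receptor signals, lost a region 17023 bp from its start, with 10.2, 11.6 and 8.62 in control and 6.26, 6.90 and 5.71 with MMF, without overlap.

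Promoters of genes with several lost regions were higher as well as lower with MMF. Of the 75 genes, 49 had a promoter peak in all 6 uncut lists, where a promoter is 1 kb on either side of a start and its level is the highest reads per background there. The MMF samples were all below the lowest control sample at 7 of the 49 (background 17.8% of 11633 genes) and above the highest at 8 (background 6.21%). At 8 of the 49 genes the promoter itself held a lost region, and without them 6 of 41 were lower and 5 higher. This split depended on the scale, since by percentile rank of fold enrichment 14 of 43 genes were lower (background 32.3%) and 2 higher (background 2.13%). The mean was lower with MMF at 28 of the 49 (57.1%), against 68.2% of all genes with such a peak, and the median log2 ratio was −0.06, against −0.10 over all genes with such a peak. Zfp36l2, which marks AU-rich mRNAs for decay, had a promoter level of 118 ± 4.34 in control and 84.5 ± 6.87 with MMF, and Ifngr1 159 ± 14.7 and 126 ± 12.4 (SD, n = 3), both without overlap. The 8 with all MMF samples above the control samples were Mbnl1, Asmt, Marc1, Snx10, Prkag2, Egln3, Fgl2 and Tor4a. Among them Marc1 stood at 46.1 ± 7.90 and 71.8 ± 8.62, Snx10 at 15.8 ± 1.74 and 24.6 ± 6.19, and the AMPK subunit gene Prkag2 at 80.3 ± 8.11 and 106 ± 16.1 (SD, n = 3). For named genes with 1 lost region, every MMF sample was lower at the promoters of Bhlha15, Meis1, Cdkn1a, Npm1, Polr1b and Prps1. At Alox5, Angpt1 and Lmo2 every MMF sample was higher, and at the others with a promoter peak in every sample the groups overlapped.

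By position, 12.7% of the lost regions overlapped a promoter (95% Wilson interval 10.9% to 14.7%), against 4.41% of gained regions, 17.4% of all regions and 30.3% of regions with a peak in all 6 lists of equal length. The order of lost and all regions depended on the cut, since at 20000 peaks from each list these shares were 41.1% and 34.8%. Of the lost summits, 41.1% lay in introns and 42.4% between genes, and their median distance from a start was 20291 bp against 17129 bp for all regions. For 141 lost regions the nearest start was over 100 kb away. The share of regions that were lost ranged from 1.16% on chromosome 10 to 1.62% on X, leaving out Y with 1 lost region of 137. Peaks tied at a cutoff were ordered by chromosome after fold enrichment, and the part of this order in these shares was not tested. Repeat sequence was described next. Over 50% of the 200 bp around the summit was masked as repeats in 14.98% of lost, 6.58% of gained and 9.10% of all regions. The window was at least 75% identical to itself at a shift of 2 to 60 bases in 19 lost regions (1.62%), against 0.149% of gained and 0.543% of all regions. A RefSeq tRNA gene was overlapped by 6 lost regions (0.511%), 0.268% of all regions and 0.503% of those with a peak in all 6 lists.

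By motif letters, the lost regions held fewer C/EBP matches (6.89%, 95% Wilson interval 5.58% to 8.49%) than all regions (14.9%) and gained regions (28.0%). PU.1 matches were also fewer, 5.02% against 8.30% of all and 9.16% of gained regions. AP-1 matches stood at 17.4% of lost regions (15.4% to 19.7%), against 13.7% of all and 10.4% of gained regions, and GATA matches at 9.11%, against 6.72% and 7.43%. CTCF matches stood at 9.02% (7.51% to 10.8%), against 6.75% and 1.19%. KLF matches occurred in 15.1% of lost regions, whose interval of 13.1% to 17.2% includes the 14.0% of all regions, and in 5.45% of gained regions. NF-Y matches were fewer in lost regions (6.98%) than in all regions (9.54%) and than in regions with a peak in all 6 lists (12.3%). RUNX matches were found in 9.36% of lost and 10.8% of all regions, MYB matches in 9.87% and 11.5%, MEIS matches in 14.3% and 15.9%, E-box matches in 4.26% and 4.84%, and ETS matches in 0.511% and 1.56%. The intervals cover counting error only, a match is a description of letters and no evidence of binding, and lost regions differ from the others in strength and repeat content, whose part in these shares was not tested.

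**Figure D4:**
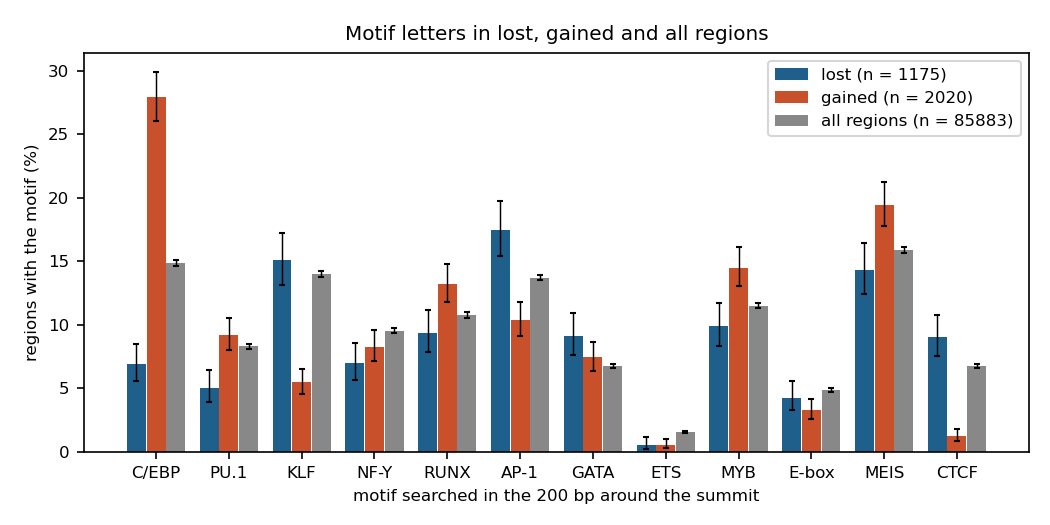
Bars give the percentage of lost (blue), gained (orange) and all regions (grey) whose 200 bp around the summit hold the letters of each motif, and error bars are 95% Wilson intervals. C/EBP letters stand at 6.89% in lost and 28.0% in gained regions, while CTCF letters stand at 9.02% and 1.19%.

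The set of lost regions and genes depended on how the lists were cut. With the same −log10 p of at least 5 in every list, in place of equal length, 173 regions were lost and 2 genes had 2 or more. With the whole lists 205 regions were lost and again 2 genes had 2 or more, and requiring no peak in any uncut MMF list left 151 regions and no gene with 2 or more, though 22 of the 75 genes still had 1. At 40000 peaks from each list 1030 regions were lost, and 5 of the 75 genes were among the 59 with 2 or more. Ranking by fold enrichment kept 40 of the 75 among 99 genes. Over the 15 alternatives that keep all 6 samples, Mbnl1 had between 0 and 4 lost regions and 3 or more in 6. At least 2 were found in 6 of the 15 for Asmt and in 9 or 10 for the other leading genes.

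**Figure D5:**
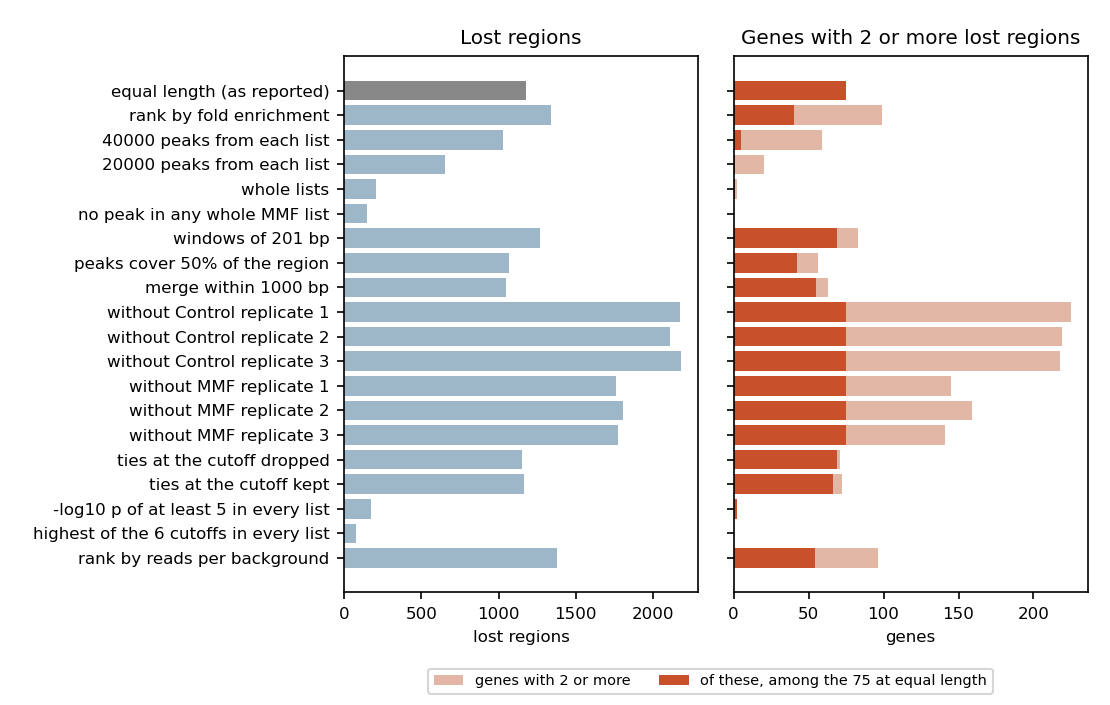
Bars give the number of lost regions (left) and of genes with 2 or more lost regions (right) under each way of cutting or comparing the lists, with the genes shared with the 75 in dark orange. The number of lost regions runs from 79 at the highest of the 6 cutoffs to 2184 without control replicate 3, and settings that apply 1 cutoff to all lists leave at most 2 genes with several.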

How the data were processed

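ATAC-seq peaks of 3 control and 3 MMF-treated samples were analysed. Per the labels and methods, the authors mapped reads to mm10 with Bowtie2 and called peaks with MACS2 in each sample on its own, with Trim Galore and FastQC also named. Versions and options are not given in the sources used here. As deposited, the peak lists hold the fold enrichment of the summit over the local background (a ratio), its −log10 p against that background, and a score that was not used here. Read totals were not used here.

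The lists held 63911, 62090 and 58496 peaks in control replicates 1 to 3 and 86556, 86165 and 80893 in MMF replicates 1 to 3. Peaks were ranked by −log10 p, then by fold enrichment, and remaining ties by chromosome and position. Each list was cut to 58496 peaks, and peaks overlapping by at least 1 bp were merged. Summit reads were solved from fold enrichment and p, and divided by the genome-wide background of the sample, which was 0.729, 0.691 and 0.620 reads in control and 0.909, 0.706 and 0.676 with MMF. Genes came from GENCODE M21 (protein-coding), and sequence and repeat masking from RefSeq GRCm38.p6. Motifs were searched in 200 bp around each summit. Python 3.11.15, numpy 2.4.6, scipy 1.17.1, pandas 2.3.3 and pysam 0.24.0 were used. The steps were tested on simulated lists.

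Because the rule used the contrast of control and MMF, no test between the groups was run at the regions. Named genes were those with 3 or more lost regions, members of the gene lists with 2 or more, up to 4 members per list with 1, and those nearest the 5 lost regions of highest mean control −log10 p, and others named are marked as chosen after their values were seen. The regions and gene lists were chosen with earlier results of these data known. Alternatives changed the ranking, list length, merging, gene assignment, promoter width, motif window and replicates used. Those on ties, common cutoffs and ranking by reads per background were chosen after seeing the data. Intervals cover counting error only. Some items are not reported here.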

Additional observations from a re-analysis of the deposited data

How the results depend on the processing

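No paired analysis was possible because the results come from no test and no label says that replicates of the same number share a mouse or culture. Of 1175 lost regions, 75 genes with 2 or more, 9 genes with 3 or more and a promoter share of 12.7%, the values were 655, 20, 2 and 41.1% at 20000 peaks, and 205, 2, 0 and 10.2% with whole lists. They were 151, 0, 0 and 10.6% when no uncut MMF list held a peak. Among the alternatives chosen after seeing the data, they were 173, 2 and 0 at a −log10 p of at least 5 in every list, and 79, 0, 0 and 21.5% at the highest of the 6 cutoffs. The promoter share was 19.7% when ranked by fold enrichment, with 20 genes of 3 or more, 20.7% at 40000 peaks, 15.8% with 2000 bp on either side of a start and 10.2% when ranked by reads per background. The promoter share of all regions changed too, from 17.4% to 34.8% at 20000 peaks, 22.1% at 40000 peaks and 16.7% by fold enrichment. It was 14.8% with whole lists, 19.5% at the highest cutoff and 17.9% by reads per background. Lost regions thus stood above all regions at 20000 peaks, by fold enrichment and at the highest cutoff, but below them at equal length. Assigning the nearest start of any gene type gave 40 genes with 2 or more and 3 with 3 or more, and merging within 1000 bp gave 4 with 3 or more. Leaving out 1 replicate at a time gave 1763 to 2184 lost regions, 141 to 225 genes with 2 or more and 17 to 36 with 3 or more, the highest counts being without a control replicate. Fewer lists must then hold or lack the peak, which loosens the rule, so these counts say nothing about stability. Of 49 promoters with a peak in every sample, 7 were lower and 8 higher without overlap. The counts were 14 and 2 by percentile rank of fold enrichment, and 9 to 13 lower and 8 to 12 higher when 1 replicate was left out (12 lower without control replicate 2, 13 without MMF replicate 2). The cause of the other changes was not tested. The median lost region had 9 or 10 reads at the summit in the control samples, which limits what a single region shows.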
